A study of Homo sapiens with 12 samples.

Results

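Integrins are the surface receptors that fix a cell to its matrix, and focal adhesion proteins couple their tails to actin and to kinases. A set of 40 such genes was looked up by gene name in the deposited RNA-seq tables of 2 human cancer cell lines, and all 40 were found in both tables among 19423 genes each. The set holds 11 alpha subunits, 5 beta subunits, 5 proteins that bind integrin tails, 4 members of the complex of integrin-linked kinase, PINCH and parvins, 5 links to actin and 10 signalling scaffolds and kinases. No measured value enters the rule, but the names were chosen with earlier results of these data known.

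The lines are A375, a skin melanoma line, and 253J, a transitional cell carcinoma line of the bladder. Cells of both branches of each line were cultured for 5 generations and given fluorescent 2.4 µm beads for 24 h. They were then detached with trypsin and sorted, and this was done 5 times. The positive branch was kept each time for having taken up at least 1 bead, and the negative branch for having taken up none. Each of the 4 groups, A375 positive, A375 negative, 253J positive and 253J negative, has 3 poly(A) RNA-seq libraries, so the negative branch carries the same bead exposure and sorting as the positive one. The labels state neither separate cultures for the 3 libraries of a branch nor more than 1 sorted lineage per branch. The p-values therefore measure only the spread between these libraries, which may be technical, and uptake cannot be told apart from other differences between the sorted lineages. In such bulk RNA, fewer cells expressing a gene and less RNA per cell cannot be told apart either.

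An integrin is a pair of 1 alpha and 1 beta subunit, and the pair sets the ligand: laminin for the pairs with ITGA3, ITGA6 and ITGA7, collagen for those with ITGA1, ITGA2, ITGA10 and ITGA11, fibronectin for ITGA5 with ITGB1, and vitronectin and other RGD proteins for ITGAV with ITGB3, ITGB5 or ITGB8. Talins and kindlins bind the beta tail and switch the pair to its active form. Vinculin, alpha-actinins and tensins then carry force to actin, while paxillin, FAK (PTK2), SRC and the Cas proteins signal from the same site. Some integrins also take part in engulfment, ITGAV with ITGB5 being the pair known from the retinal pigment epithelium.

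Recovered depth was 14576506 to 17916519 reads per library. Levels are given as normalized read counts, which are gene counts divided by a size factor of the library and are scaled within a line. The melanocyte genes MLANA and PMEL were at 41.9 to 94.0 and 2459 to 4506 in A375, where KRT7 was at most 2.8. KRT8, a keratin, was at 74.7 to 145 in A375. In 253J the keratin KRT8 was at 7962 to 10303 and KRT7 at 139.7 to 218, with MLANA at most 7.1 and PMEL at 56.9 to 113. EPCAM did not pass 6.1 in any library of either line. Of the 8 leukocyte markers in the tables, PTPRC, ITGB2, CD68, CD14 and FCER1G did not pass 19.9 in any library. CORO1A was at 49.2 to 73.8 in A375 and 32.1 to 46.2 in 253J, LCP1 at 17.0 to 43.6 and 9.1 to 16, and ITGAM at 0 to 4.1 and 12 to 31.0. The labels also number the libraries, and the numbers fall into a low set (up to 12) and a high set (from 19). In A375 the low set holds positive replicates 1 and 2 and negative replicate 1, and in 253J it holds both branches' replicates 1 and 2. A chi-square of read counts, divided by its degrees of freedom, was 7.17 to 17.13 between libraries of a branch from different sets and 1.25 to 1.63 between those of 1 set.

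A375 carried 15 of the 16 subunits at a mean of at least 10 over its 6 libraries, and 253J carried 13. The exception in A375 was ITGB4, the hemidesmosome partner of ITGA6, at 3.1, 2.8 and 7.1 in positive and 8.0, 8.9 and 6.0 in negative replicates 1 to 3. Just inside the threshold in A375 was ITGA11, a collagen receptor subunit, at 12.5, 10.4 and 16.2 and 10.0, 10.9 and 6.0. The exceptions in 253J were ITGA11, ITGA4 and ITGA9. Pairs with ITGA4 or ITGA9 bind VCAM1, fibronectin or tenascin. ITGA11 was listed at 2.1, 0.0 and 1.0 in the 253J positive libraries and at 0 in all negative ones. ITGA4 was at 3.2, 2.1 and 1.0 in positive and 1.9, 1.8 and 4.0 in negative 253J libraries, and ITGA9 at 4.3, 4.2 and 9.1 and 4.8, 2.6 and 2.0. The lowest subunit inside the threshold in 253J was ITGA10, whose 6 values ran from 16.9 to 43.4. Thus ITGA4, ITGA9 and ITGA11 passed the threshold in A375 alone, ITGB4 in 253J alone, and the other 12 subunits in both lines.

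To set subunits beside each other, reads were divided by the length of all exons of the gene and by the library's total, which gives RPKM. On the RPKM scale ITGA6, a laminin receptor subunit, led in A375 with a median of 66.8 and a range of 60.6 to 74.7 over the 6 libraries. It was followed by ITGB5 with a median of 48.7 and by ITGB1, the common partner of most alpha subunits, with 44.4, and the ranges of these 2 overlapped. A middle group followed in which each range overlapped the next: ITGA5 at a median of 21.6, ITGB3 at 19.1, ITGAV at 17.2, ITGA4 at 13.5, ITGA3 at 11.1 and ITGB8 at 10.6. ITGA2 at 6.61, ITGA10 at 6.23 and ITGA9 at 4.15 came next, their ranges again overlapping in turn. The range of ITGA2, 6.08 to 7.03, lay under that of ITGB8 but overlapped the lower end of that of ITGA3, 6.19 to 15.2, and the range of ITGA10, 2.81 to 15, reached up to ITGA4. ITGA7 and ITGA1 were at medians of 0.728 and 0.514 with overlapping ranges, and ITGA11 and ITGB4 at 0.0635 and 0.0632.

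In 253J the RPKM scale was led by ITGB1 with a median of 206 and a range of 200 to 218, and by ITGA3, a laminin receptor subunit, with a median of 123 and a range of 102 to 131. Neither range overlapped the other or that of any lower subunit. The ranges then overlapped in turn from ITGB5 at a median of 35.1 through ITGB4 at 27.1, ITGAV at 21.7, ITGA6 at 19.2 and ITGA5 at 16.5. ITGB8 at 11.9 and ITGB3 at 10.1 formed the next pair, and ITGA1 at 1.80 and ITGA2 at 1.57 the one after it. ITGA7 at 0.591 and ITGA10 at 0.305 each stood apart from their neighbours, and ITGA9, ITGA4 and ITGA11 closed the order at 0.0329, 0.0163 and 0. ITGA6 was thus the highest alpha subunit in A375 and ITGA3 the highest in 253J, a difference in order that was not tested, since the tables were normalized separately. For ITGB3, 51.6% of the exon bases are shared with another annotated gene on the same strand, AC068234.1, so its count is uncertain.

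**Figure D1:**
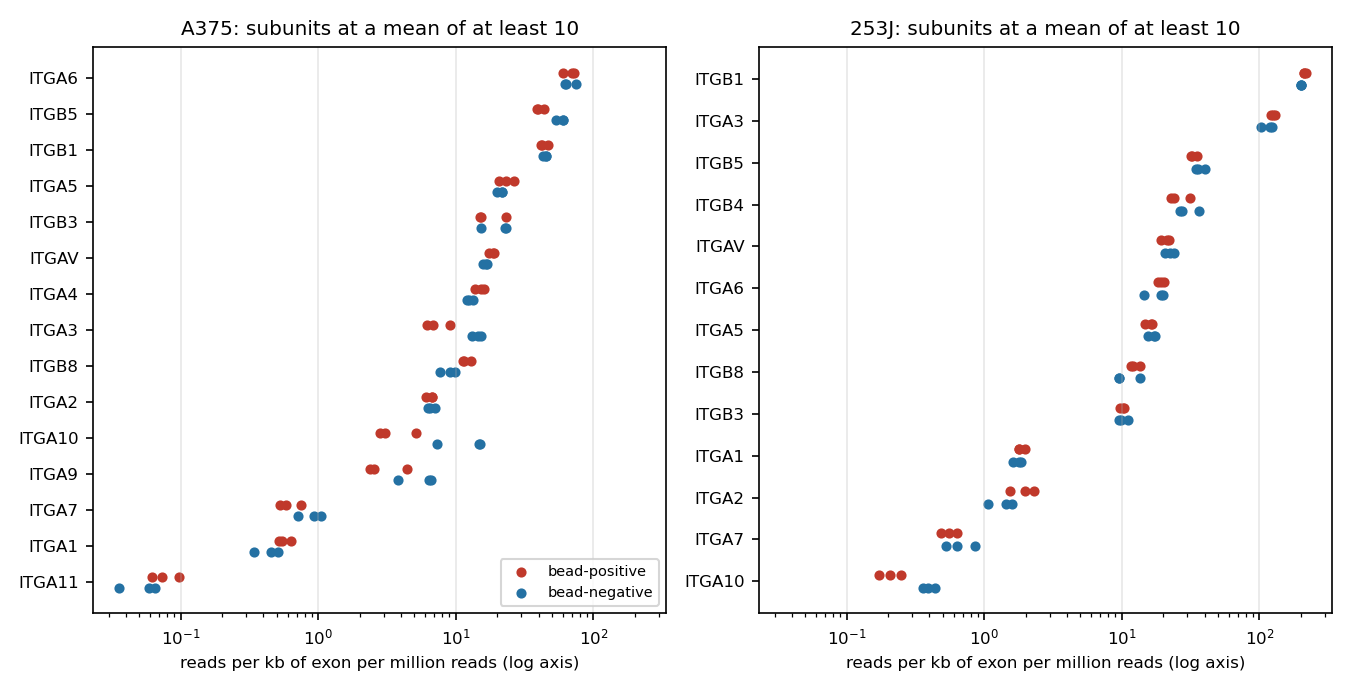
RPKM (reads per kb of exon, scaled to library total, on a log axis) of the integrin subunits at a mean of at least 10, ordered by their median in each line, with 1 point per library, red for bead-positive and blue for bead-negative. ITGA6 leads in A375 and ITGB1 and ITGA3 lead in 253J, where all points of ITGB1 lie between 200 and 218 and all points of ITGA3 between 102 and 131.

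Among the other members, ACTN4, an actin crosslinker, was the highest on the RPKM scale in both lines, with a median of 166 in A375 and 89.6 in 253J. The vinculin gene VCL had a median of 16.8 in A375 and 63.4 in 253J, and the kinase gene SRC 9.10 and 57.8. The kindlin-1 gene FERMT1 was at 3.11 and 0.372, and the alpha-parvin gene PARVA at 3.46 and 0.00495. The paxillin relative TGFB1I1 was at 2.88 and 0.0184. These differences between lines were not tested. TNS1, a tensin, was under the threshold in both lines, at 1.0 to 7.6 normalized read counts in A375 and 3.2 to 12.8 in 253J. PARVA, at 0 to 4.2, and TGFB1I1, at 0 to 3.9, were under it in 253J.

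In A375, the positive branch had less RNA of the integrin subunits ITGA3, ITGA10 and ITGB5 and of the signalling genes SRC and NEDD9, and more RNA of ITGB8, FERMT1 and VCL. The folds ran from 1.21 to 3.28. Of the 38 members with a mean of at least 10, 8 passed an adjusted p of 0.05 (limma on log2(value + 1), Benjamini-Hochberg over 14118 genes), against 10.2% of all genes tested. There were 3 higher and 5 lower in positive, against 4.99% and 5.26% of all genes in those directions. For 17 of the 38 members the branches' values did not overlap, where that held for 29.5% of all genes. The median log2 difference of the members was -0.02, and that of all genes 0.00. The median absolute log2 difference was 0.39 for the 15 tested subunits and 0.17 for the other 23 members, beside 0.14 for all genes. Log2 differences below are positive minus negative with the SE of the fit over 3 and 3 libraries, and they understate the change of low genes. A fit that took the number set as a block called 21 members (9 higher, 12 lower), where 32.0% of all genes passed. Each of the 21 had the same sign within both sets, as did 4513 of all 4523 genes called by that fit. The p-values of that fit rest on libraries of 1 set within a branch, whose spread may be technical. edgeR and DESeq2 on the recovered reads called the same 8 members, where they called 10.3% and 10.4% of all genes. With chromosome medians taken out these 8 passed again, where 6.24% of all genes did.

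**Figure D2:**
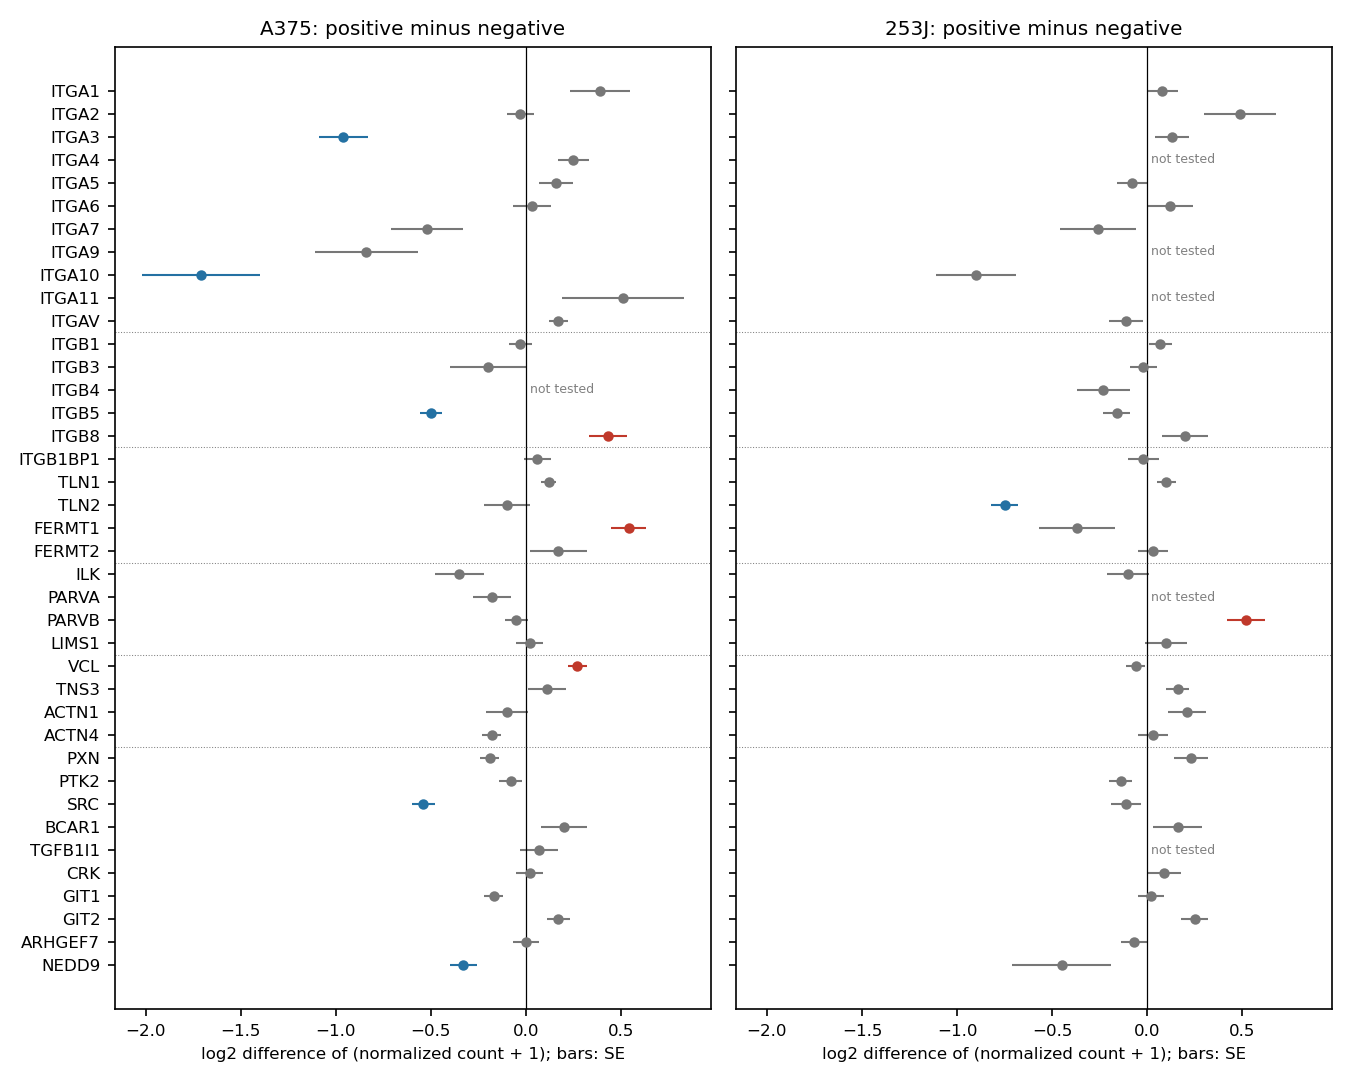
Log2 difference, positive minus negative, of each member tested in at least 1 line (points, with bars for the SE over 3 and 3 libraries), grouped by role, with red for members higher and blue for members lower at an adjusted p of 0.05. In A375 the 8 coloured members include 4 subunits, led by ITGA10 at -1.71, and in 253J only TLN2 and PARVB are coloured.

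Among the laminin receptor subunits of A375, ITGA3 fell. It was at 1052, 938 and 1356 normalized read counts in positive replicates 1 to 3 and at 1985, 2172 and 2281 in the negative ones, or 1115 ± 216 against 2146 ± 150 (SD, n = 3). The highest positive library lay well under the lowest negative one. The log2 difference was -0.96 ± 0.13, or 1.94-fold lower, with an adjusted p of 0.00472, and it was -1.0 within the low and -0.71 within the high number set. ITGA3 stayed past the threshold without any 1 of the 6 libraries. Where the library left out shares its set and branch with another, a library much like it remains. With same-set libraries averaged, which leaves fewer samples, the limma adjusted p of ITGA3 was 0.130. The subunit ITGA6 was at 7332, 7106 and 6064 in positive and at 7539, 6276 and 6309.8 in negative libraries, which overlapped (log2 difference 0.03 ± 0.10, limma adjusted p 0.896). ITGA7, known from muscle, was at 58.1, 52.0 and 73.0 and 69.8, 103 and 91.6, also with overlap (log2 difference -0.52 ± 0.19, limma adjusted p 0.146).

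The largest fall among the A375 members was that of ITGA10, a collagen receptor subunit known from cartilage. It was at 277, 301 and 499.6 in positive and at 713, 1432 and 1445 in negative libraries. All positive libraries were below all negative ones, but the low-set negative library, replicate 1, was well under the other two. The log2 difference was -1.71 ± 0.31, or 3.28-fold lower, with an adjusted p of 0.0146. Within the low set it was -1.30 and within the high set -1.52. The call was lost without positive replicate 1 or 2 or negative replicate 2 or 3, with adjusted p up to 0.0737, and without a filter on low values (limma adjusted p 0.0721). The median log2 difference of chromosome 1, where ITGA10 lies, was 0.16, of the opposite sign.

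The other collagen receptor subunits of A375 did not pass. ITGA1 was at 150.5, 156 and 179 in positive and 98.7, 131 and 144 in negative libraries, without overlap, at a log2 difference of 0.39 ± 0.16 and a limma adjusted p of 0.174, which was 0.000608 with the sets as a block. ITGA2 was at 751, 818 and 809 and 859.8, 795 and 766, with overlap (log2 difference -0.03 ± 0.07, limma adjusted p 0.859). ITGA11, near the threshold for testing, gave 0.51 ± 0.32 (limma adjusted p 0.377).

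Of the subunits whose pairs bind fibronectin, VCAM1 or tenascin, none passed in A375. With the number set as a block all 3 did, where 32.0% of all genes passed. ITGA4 was at 1981, 1861 and 1663 in positive and 1622, 1524 and 1460.2 in negative libraries, all positive ones above (log2 difference 0.25 ± 0.08, limma adjusted p 0.0795, and 0.000252 with the block). ITGA5 was at 2739.7, 2417 and 3082 and 2317, 2520.4 and 2499, where positive replicate 2 lay among the negatives (log2 difference 0.16 ± 0.09, limma adjusted p 0.316, and 8.26e-05 with the block). ITGA9 was at 309, 324 and 566 and 489.7, 836 and 803. Its low-set libraries were the lowest of each branch, and positive replicate 3 lay above negative replicate 1. The log2 difference of ITGA9 was -0.84 ± 0.27 with a limma adjusted p of 0.101, and 3.43e-09 with the block. With same-set libraries averaged, the limma adjusted p was 0.515 for ITGA4, 0.499 for ITGA5 and 0.593 for ITGA9.

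The alpha subunit ITGAV and its partners did not share a direction in A375. ITGAV itself was at 2246, 2353 and 2382 in positive and 2004, 2094 and 2114 in negative libraries, all positive ones above (log2 difference 0.17 ± 0.05, limma adjusted p 0.0800, and 0.000128 with the sets as a block). ITGB5 was at 3944, 3965 and 4310.0 in positive and 5347, 5987 and 5966 in negative libraries, or 4073 ± 206 against 5767 ± 364 (SD, n = 3). The branches were far apart, and ITGB5 fell by 0.50 ± 0.06 on the log2 scale, or 1.42-fold, with an adjusted p of 0.00383. It was -0.44 within the low and -0.47 within the high set and stayed past the threshold without any 1 library. With same-set libraries averaged, the limma adjusted p of ITGB5 was 0.146.

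ITGB8, whose pair with ITGAV binds latent TGF-beta, was at 2663, 2690.4 and 2999.7 in positive and 1789, 2135 and 2302 in negative libraries. All positive libraries lay above all negative ones, and ITGB8 rose by 0.43 ± 0.10 on the log2 scale, or 1.35-fold, with an adjusted p of 0.0305. The call was lost without any 1 positive library or without negative replicate 2, with adjusted p up to 0.0979, and without a filter on low values (limma adjusted p 0.0972). ITGB3 was at 1031, 1034 and 1567 and 1044, 1539 and 1568. Its values followed the number sets rather than the branches, at 1031 to 1044 in the 3 low-set libraries and at 1539 to 1568 in the 3 high-set ones, and the log2 difference was 0.00 with the set as a block. ITGB1 was at 3889, 3957 and 4331 and 4032, 4216 and 4174, with overlap (log2 difference -0.03 ± 0.06, limma adjusted p 0.791).

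**Figure D3:**
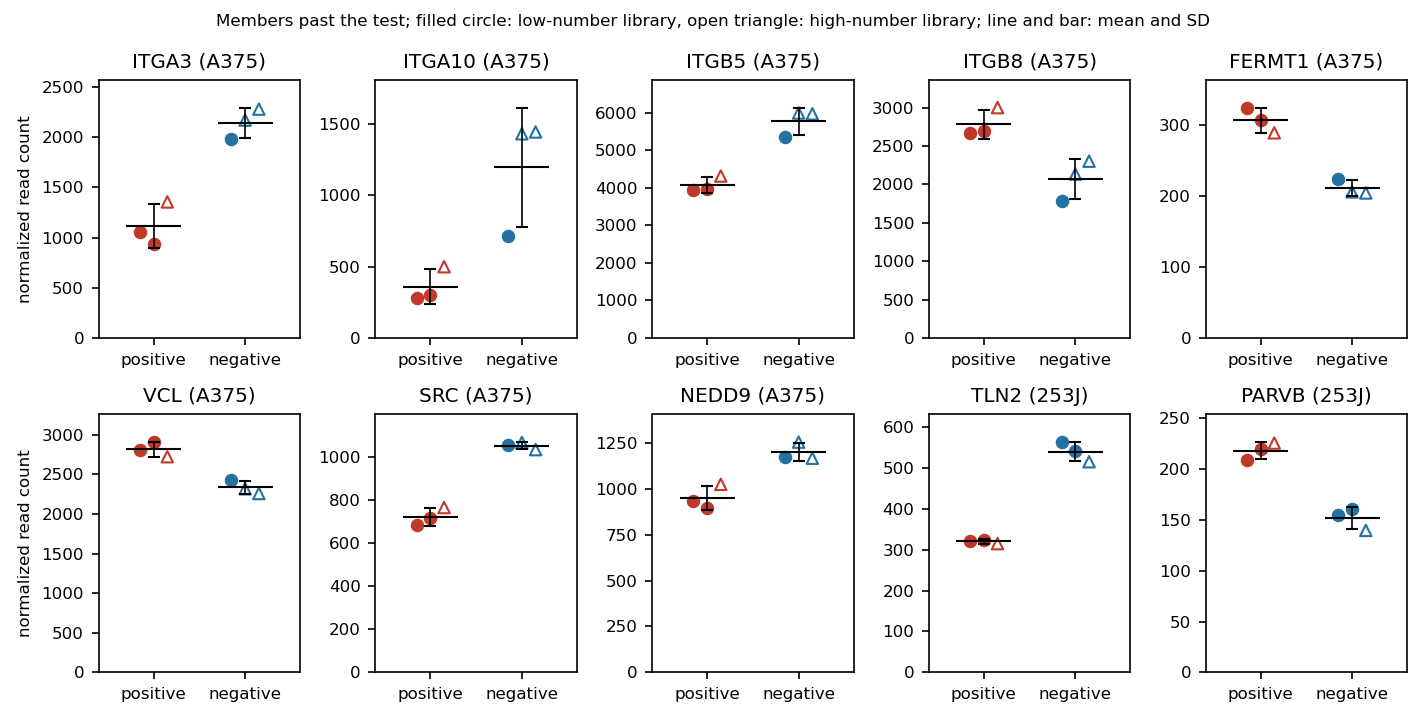
Normalized read counts of the 10 members past an adjusted p of 0.05 within a line, 1 panel each, with filled circles for low-number libraries, open triangles for high-number ones, and lines and bars for the mean and SD of 3 libraries. The branches do not overlap in any panel, and in ITGA10 the low-set negative library at 713 stands far under the other two.

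Of the integrin tail binders, the kindlin-1 gene FERMT1, known mainly from epithelia, rose in A375. It was at 324, 307 and 289 in positive and 223, 206 and 204 in negative libraries, without overlap. The log2 difference was 0.54 ± 0.09, or 1.45-fold, with an adjusted p of 0.00860, 0.50 within the low and 0.49 within the high set. Without positive replicate 1 or 2 the call was lost, with adjusted p up to 0.0522. The 58 protein-coding genes measured in the 10 Mb around FERMT1 had a median of 0.18, while that of chromosome 20 was -0.13. With chromosome medians taken out FERMT1 was at 0.63 (limma adjusted p 0.00561), but the local median of opposite sign was not taken out. The talin-1 gene TLN1 was at 4546, 4346 and 4420.5 and 4065, 4082 and 4104, all positive libraries above (log2 difference 0.12 ± 0.04, limma adjusted p 0.140, and 0.00400 with the sets as a block). The local median around TLN1 was 0.06 and was not taken out. The talin-2 gene TLN2 was at 319, 307 and 244 and 287, 326 and 316, with overlap (log2 difference -0.10 ± 0.12, limma adjusted p 0.652). FERMT2 and the beta-1 tail binder ITGB1BP1 overlapped between branches, with log2 differences of 0.17 and 0.06.

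No gene of the complex of integrin-linked kinase passed in A375. ILK was at 129.8, 97.4 and 112 in positive and 145, 151 and 133 in negative libraries, all positive ones below (log2 difference -0.35 ± 0.13, limma adjusted p 0.153, and 0.0289 with the sets as a block). PARVA was at 703, 676 and 581 and 832, 723 and 669.9, with overlap (log2 difference -0.18 ± 0.10, limma adjusted p 0.334, and 0.000197 with the block). Both genes lie on chromosome 11, where the median log2 difference of the 691 protein-coding genes measured was -0.27. With chromosome medians taken out, ILK was at -0.08 and PARVA at 0.09. The counts of ILK are also uncertain, since 78.5% of its exon bases overlap other annotated genes, TAF10 among them, on the opposite strand, and whether the counting used strand is not stated here. PARVB was at 1309, 1306 and 1364 and 1309.6, 1439 and 1361, and LIMS1, which encodes PINCH-1, overlapped between branches too, with log2 differences of -0.05 and 0.02.

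Among the actin links, VCL rose in A375. It was at 2813, 2908 and 2724 in positive and 2427, 2319.6 and 2259.5 in negative libraries, a narrow but complete separation. The log2 difference was 0.27 ± 0.05, or 1.21-fold, with an adjusted p of 0.0178, 0.24 within the low and 0.25 within the high set. Without positive replicate 1 or 2 or negative replicate 2 or 3 the call was lost, with adjusted p up to 0.0927. ACTN4 was at 14778, 13991 and 14818 and 16289.7, 16186 and 16771, all positive libraries below (log2 difference -0.18 ± 0.05, limma adjusted p 0.0575, and 3.31e-05 with the sets as a block). ACTN1 was at 4946, 4702 and 3998 and 5720.1, 4384 and 4602, with overlap (log2 difference -0.10 ± 0.11, limma adjusted p 0.638, and 1.01e-05 with the block). TNS3, a tensin, gave 0.11 ± 0.10 with overlap.

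The signalling members that fell in A375 were SRC and NEDD9. SRC was at 685, 718 and 766 in positive and 1056, 1068 and 1035 in negative libraries, or 723 ± 40.7 against 1053 ± 16.8 (SD, n = 3). Every positive library was well below every negative one, and the log2 difference was -0.54 ± 0.06, or 1.46-fold lower, with an adjusted p of 0.00243. It was -0.59 within the low and -0.46 within the high set, and the call held without any 1 library. With same-set libraries averaged, the limma adjusted p of SRC was 0.105. The 78 protein-coding genes measured in the 10 Mb around SRC on chromosome 20 had a median log2 difference of -0.20. With chromosome medians taken out, which was -0.13 for chromosome 20, SRC was at -0.45 and still passed (limma adjusted p 0.00659). The local median was not taken out. NEDD9, a scaffold of the Cas family, was at 935, 893 and 1024 and 1175, 1253 and 1166, without overlap. The log2 difference was -0.33 ± 0.07, or 1.26-fold lower, with an adjusted p of 0.0216, which rose to as much as 0.0993 without positive replicate 1 or 2 or negative replicate 2 or 3. The local median around NEDD9 was -0.11 and was not taken out.

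The other signalling members did not pass in A375. The paxillin gene PXN was at 5556, 5181 and 5146 in positive and 6208, 6020.0 and 5829 in negative libraries, all positive ones below (log2 difference -0.19 ± 0.05, limma adjusted p 0.0636, and 6.13e-06 with the sets as a block). GIT1 and GIT2, paralogous scaffolds that bind paxillin, had opposite signs. GIT1 was at 1409.8, 1410.5 and 1440.1 and 1642, 1557 and 1583, all positive libraries below (log2 difference -0.17 ± 0.05, limma adjusted p 0.0769, 0.00121 with the block and 0.0417 without a filter on low values). GIT2 was at 888, 792 and 838 and 742, 749.8 and 741, all positive libraries above (log2 difference 0.17 ± 0.06, limma adjusted p 0.136, and 0.0109 with the block). PTK2, BCAR1, TGFB1I1, the adaptor CRK and the GIT partner ARHGEF7 overlapped between branches, with log2 differences from -0.08 to 0.20.

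**Figure D4:**
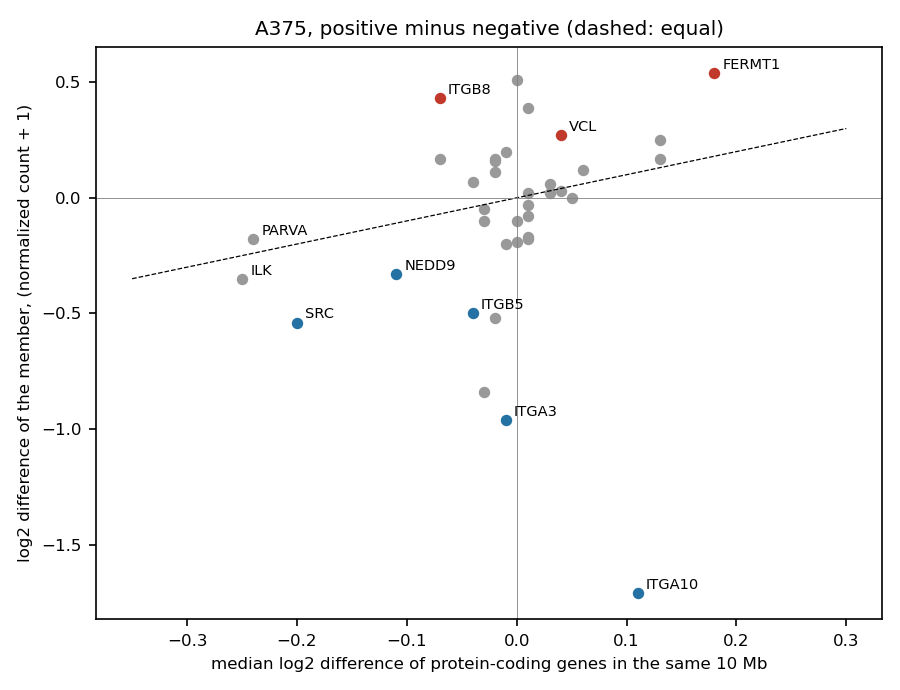
Log2 difference of each tested A375 member against the median log2 difference of the protein-coding genes in the same 10 Mb of its chromosome, where at least 20 were measured, with red for members higher and blue for members lower at an adjusted p of 0.05 and a dashed line of equality. ILK and PARVA, at -0.35 and -0.18, lie in stretches with medians of -0.25 and -0.24, while ITGA3, ITGA10, ITGB5 and ITGB8 lie in stretches with medians between -0.07 and 0.11. For the other coloured members the medians were -0.20 for SRC, 0.18 for FERMT1, -0.11 for NEDD9 and 0.04 for VCL, each of the member's sign.

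In 253J, the positive branch had less RNA of the talin-2 gene TLN2 and more of the beta-parvin gene PARVB. These were the only 2 of the 34 members tested that passed an adjusted p of 0.05 (limma, over 14189 genes), where 1.09% of all genes passed. PARVB was higher, where 0.529% of all genes were, and TLN2 lower, where 0.564% were. The branches' values did not overlap for 10 of the 34 members, where that held for 20.2% of all genes. The median absolute log2 difference was 0.13 for the 13 tested subunits and 0.11 for the other 21 members, beside 0.11 for all genes. In 253J same-numbered libraries deviated together, but replicates 1 and 2 also did so across numbers (correlations of 0.21 and 0.17). The replicate number thus pairs the libraries no further than the number set, and this was read from these same data. The fit with the replicate number as a block is given beside these results. It called 14 members (8 higher, 6 lower), where 14.0% of all genes passed. The fit with the number set as a block called 15 (9 higher, 6 lower), where 18.6% of all genes passed. The high set holds 1 positive and 1 negative library in 253J, so values within it have no test. edgeR and DESeq2 called the same 2 members, where they called 1.15% and 2.21% of all genes, and with chromosome medians taken out TLN2 alone passed, where 0.944% of all genes did.

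TLN2 was at 321, 325 and 315 in the 253J positive replicates 1 to 3 and at 562, 541 and 515 in the negative ones, or 320 ± 5.09 against 539 ± 23.5 (SD, n = 3). The positive libraries were nearly equal and far below every negative one. The log2 difference was -0.75 ± 0.07, or 1.68-fold lower, with an adjusted p of 0.00187, -0.77 within the low and -0.71 within the high set. The call held without any 1 library, but with same-set libraries averaged the limma adjusted p of TLN2 was 0.132. TLN1 was at 6490.5, 6518 and 6505 and 6347, 6098 and 5817, all positive libraries above (log2 difference 0.10 ± 0.05, limma adjusted p 0.491). FERMT1 was low, at 29.9, 21.1 and 25.4 in positive and 32.8, 32.5 and 33.1 in negative libraries, all positive ones below (log2 difference -0.37 ± 0.20, limma adjusted p 0.466). FERMT2 and ITGB1BP1 overlapped between branches.

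PARVB was at 208, 219 and 225 in positive and 154, 161 and 139.5 in negative 253J libraries, or 218 ± 8.51 against 152 ± 10.9 (SD, n = 3). The branches did not overlap, and the log2 difference was 0.52 ± 0.10, or 1.44-fold, with an adjusted p of 0.0474. It was 0.44 within the low and 0.69 within the high set. The call held only without negative replicate 3 and was lost without each of the other 5 libraries, with adjusted p up to 0.244. With chromosome medians taken out its limma adjusted p was 0.0541, and without a filter on low values 0.0856. PARVA, its paralogue, was at most 4.2 counts in 253J. ILK and LIMS1 gave log2 differences of -0.10 and 0.10 with overlap.

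None of the 13 tested subunits passed in 253J without a block. With the replicate block 5 did, where 14.0% of all genes passed, but the labels state no such pairing. ITGA10 was at 24.6, 16.9 and 20.3 in positive and 43.4, 38.7 and 35.1 in negative libraries, without overlap. Its log2 difference was -0.90 ± 0.21 with a limma adjusted p of 0.0959, and 0.0124 with the replicate block. ITGA2 was at 286, 244 and 188 and 198, 181 and 130.4. Each positive library was above the negative one of its number, though positive replicate 3 lay under negative replicate 1 (log2 difference 0.49 ± 0.19, limma adjusted p 0.307, and 0.00207 with the block). ITGA1 was at 571, 522 and 512 and 519, 539.8 and 463, with overlap (log2 difference 0.08 ± 0.08, limma adjusted p 0.741).

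ITGB4, above the threshold in 253J alone, was at 2520.3, 2406 and 3258 in positive and 2934, 2827 and 3816 in negative libraries. Replicate 3 was the highest in both branches, and each positive library was below the negative one of its number (log2 difference -0.23 ± 0.14, limma adjusted p 0.528, and 0.00188 with the replicate block). ITGA6, its partner, was at 2052, 1955 and 1858 and 2033, 1974 and 1449.9, with overlap (log2 difference 0.12 ± 0.12, limma adjusted p 0.720). ITGA3 was at 20019, 19295 and 18277 and 19171, 18305 and 15436. Negative replicate 3 was the lowest of the 6, and the log2 difference was 0.13 ± 0.09 with a limma adjusted p of 0.578, 0.0684 with the replicate block and 0.0247 with the sets as a block. ITGA7 was at 48.1, 54.8 and 61.9 and 53.0, 63.3 and 84.3, and ITGA5 at 1935, 1730.0 and 1929 and 2089, 2035 and 1810.1, both with overlap and log2 differences of -0.26 and -0.08. ITGA5 was at -0.17 within the low set, which passed (limma adjusted p 0.000239), and at 0.09 within the high set.

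The ITGAV group of 253J overlapped between branches. ITGAV was at 2715, 2843 and 2424 in positive and 3118, 2906 and 2587 in negative libraries (log2 difference -0.11 ± 0.09, limma adjusted p 0.639). ITGB5 was at 3568, 3179.6 and 3237 and 3640.1, 3525 and 4025 (log2 difference -0.16 ± 0.07, limma adjusted p 0.363, and 0.0434 with the replicate block). ITGB8 was at 2753, 2863 and 3182 and 2295, 2288 and 3169. Its 2 low-set negative libraries were the lowest, while the high-set pair was nearly equal, at log2 differences of 0.29 within the low and 0.01 within the high set. The limma adjusted p of ITGB8 was 0.539, and 0.0278 with the replicate block. ITGB3 was at 662, 706 and 696 and 657, 683 and 748, with a log2 difference of -0.02 ± 0.07. ITGB1 was at 19743, 19637 and 20197 and 19125, 18972 and 18519.5, all positive libraries above by a small step (log2 difference 0.07 ± 0.06, limma adjusted p 0.616).

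Among the actin links of 253J, VCL was at 9719, 9548 and 9788 in positive and 10083, 9953 and 10259 in negative libraries, all positive ones below by a small step (log2 difference -0.06 ± 0.05, limma adjusted p 0.665). TNS3 was at 3009, 3029.9 and 3186 and 2779.7, 2611 and 2851, all positive libraries above (log2 difference 0.16 ± 0.06, limma adjusted p 0.261, and 0.0168 with the replicate block). With chromosome medians taken out, TNS3, on chromosome 7, was at 0.04. ACTN1 was at 8386, 8354 and 7622 and 7661, 7578 and 5987. Positive replicate 3 lay among the negatives (log2 difference 0.21 ± 0.10, limma adjusted p 0.410, and 0.00922 with the block). ACTN4 was at 8813, 8496 and 7970.5 and 8892, 8616 and 7288, with overlap and a log2 difference of 0.03.

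None of the 9 tested signalling members of 253J passed without a block. With the replicate block, a pairing that the labels do not state, 5 passed, where 14.0% of all genes did. PXN was at 4566, 4419 and 4068 in positive and 4054, 3852 and 3276 in negative libraries, all positive ones above by a small step (log2 difference 0.23 ± 0.09, limma adjusted p 0.296, and 0.00270 with the block). GIT2 was at 467, 447 and 454 and 376, 379.8 and 394, also without overlap (log2 difference 0.25 ± 0.07, limma adjusted p 0.148, and 0.0190 with the block). BCAR1, the Cas family scaffold p130Cas, was at 3172, 3179.6 and 2489 and 2939, 2824 and 2162. Replicate 3 was the lowest in both branches (log2 difference 0.16 ± 0.13, limma adjusted p 0.654, and 0.0178 with the block). PTK2 was at 2155, 2173 and 2422 and 2395, 2467 and 2577 (log2 difference -0.14 ± 0.06, limma adjusted p 0.390, and 0.0359 with the block). NEDD9 was at 50.3, 48.5 and 82.2 and 71.3, 65.9 and 110.4, with replicate 3 the highest in both branches (log2 difference -0.45 ± 0.26, limma adjusted p 0.493, and 0.0420 with the block). The protein-coding genes in the same 10 Mb as PTK2 had a median log2 difference of -0.20, a larger fall than that of PTK2 itself. This local median was 0.17 for GIT2 and 0.15 for PXN, of the same sign as the gene. For BCAR1 it was 0.04 and for NEDD9 0.01. The local medians were not taken out, and their part in these differences was not tested. SRC was at 5577, 5815 and 5886 and 5879, 5807 and 7043. Its negative replicate 3 was the highest, and the log2 difference was -0.11 ± 0.08 with a limma adjusted p of 0.599. GIT1, CRK and ARHGEF7 overlapped between branches, with log2 differences from -0.07 to 0.09.

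The difference between the positive-minus-negative values of A375 and 253J was itself tested for the 33 members measured at a mean of at least 10 in both lines. It passed for 7 members (limma, over 12509 genes), where 6.16% of all genes passed, and for 5 with chromosome medians taken out, where 3.80% did. ITGA3 had the largest such difference, at -1.09 ± 0.17 on the log2 scale (A375 minus 253J, limma adjusted p 0.00230), from -0.96 in A375 and 0.13 in 253J. FERMT1 had log2 differences of 0.54 in A375 and -0.37 in 253J, which differed by 0.90 ± 0.18 (limma adjusted p 0.0122). TLN2 was at -0.10 and -0.75 and differed by 0.65 ± 0.14 (limma adjusted p 0.0156). The talin-2 fall in 253J and the kindlin-1 rise in A375 therefore differed between lines by test. The 253J part of the FERMT1 contrast was itself not called (limma adjusted p 0.466), at 21.1 to 33.1 counts. In A375 the local median around FERMT1 was 0.18, of the same sign, and was not taken out.

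For PARVB the log2 differences were -0.05 in A375 and 0.52 in 253J, and the difference between lines was -0.57 ± 0.10 (limma adjusted p 0.00531). VCL was at 0.27 and -0.06 and differed by 0.33 ± 0.07 (limma adjusted p 0.0107). These 5 members passed without any 1 of the 12 libraries. With same-set libraries averaged, their limma adjusted p ran from 0.125 to 0.360. SRC, at -0.54 and -0.11, differed by -0.43 ± 0.10 (limma adjusted p 0.0243), and passed in 5 of the 12 fits with 1 library left out. PXN, at -0.19 and 0.23, differed by -0.41 ± 0.11 (limma adjusted p 0.0380), and passed in 3 of the 12. With chromosome medians taken out, SRC and PXN no longer passed (limma adjusted p 0.105 and 0.0782).

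The other 26 members tested in both lines did not pass. ITGA10 was at -1.71 in A375 and -0.90 in 253J, on levels that differ widely, and the difference of -0.81 ± 0.39 had a limma adjusted p of 0.258. ITGB5 was at -0.50 and -0.16, differing by -0.34 ± 0.10 (limma adjusted p 0.0642). ITGB8 was at 0.43 and 0.20, differing by 0.23 ± 0.17 (limma adjusted p 0.508). The replicate numbers do not pair the A375 libraries, so a block on them is doubtful there. In the fit with the replicate number as a block, 13 members passed between lines, where 16.2% of all genes did. They held the 7 and also ITGA10 and ITGB5 (limma adjusted p 0.0275 and 0.0120), but not ITGB8 (0.103). Blocked by number set, 18 passed, where 28.0% of all genes did, among them ITGA10, ITGB5 and ITGB8 (limma adjusted p 0.0399, 0.00186 and 0.00246). Of the fits run, a difference between lines for these 3 subunits passed only in those with a block or, for ITGA10 and ITGB5, in some fits with 1 library left out. With same-set libraries averaged, limma passed 0 members between lines, where 0.680% of all genes passed, and 7 members were at an unadjusted p under 0.05. Averaging also left 0 members in A375 and 0 in 253J, where 0.375% and 0.148% of all genes passed, with 10 and 3 members at an unadjusted p under 0.05.

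In the fits that took the number set as a block, 5 of the 33 members measured in both lines passed in both with the same sign, where 3.53% of all genes did, and 3 passed with opposite signs, where 3.79% did. ITGA10 had log2 differences of -1.41 in A375 and -0.90 in 253J, ITGB5 -0.45 and -0.16, and NEDD9 -0.30 and -0.45. These 3 members were lower in positive in both lines. ITGB8 had 0.51 and 0.20, and GIT2, for which 25.5% of the exon bases overlap other genes on the opposite strand, 0.17 and 0.25. These were higher in both. The ITGB8 value of 253J in the unblocked fit, on chromosome 7 with a median of 0.12, was 0.08 with chromosome medians taken out (limma adjusted p 0.848). The members with opposite signs were ITGA3 at -0.86 and 0.13, PXN at -0.21 and 0.23, and ACTN1 at -0.21 and 0.21. The libraries of 1 set within a branch are close to sampling noise, so p-values of these fits rest on a spread that may be technical.

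For the called members with exactly 1 start site in the RefSeq table, the 250 bases before that start (GRCh38.p14) are shown, since these are the genes whose RNA differed within a line: ITGA10 at chr1:145910051-145910300 (minus strand), ITGB8 at chr7:20330650-20330899 (plus), VCL at chr10:73997866-73998115 (plus) and TLN2 at chr15:62390300-62390549 (plus). Each is written 5′ to 3′ on its gene's strand, and capitals mark matches to the motifs searched on both strands: TATAAA, the GC box GGGCGG, the AP-1 type TGANTCA, the E-box CACGTG, the M-box core CATGTG and the TEAD type CATTCC.
ITGA10: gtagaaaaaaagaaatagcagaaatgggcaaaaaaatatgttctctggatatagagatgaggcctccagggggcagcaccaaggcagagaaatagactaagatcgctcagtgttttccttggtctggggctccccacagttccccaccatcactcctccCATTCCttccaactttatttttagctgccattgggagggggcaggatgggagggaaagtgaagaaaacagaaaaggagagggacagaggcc
ITGB8: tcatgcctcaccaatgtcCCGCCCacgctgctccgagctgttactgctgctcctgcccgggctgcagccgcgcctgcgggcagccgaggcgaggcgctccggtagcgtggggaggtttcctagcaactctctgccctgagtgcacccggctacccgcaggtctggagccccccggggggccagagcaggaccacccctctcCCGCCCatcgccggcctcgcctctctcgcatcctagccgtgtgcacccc
VCL: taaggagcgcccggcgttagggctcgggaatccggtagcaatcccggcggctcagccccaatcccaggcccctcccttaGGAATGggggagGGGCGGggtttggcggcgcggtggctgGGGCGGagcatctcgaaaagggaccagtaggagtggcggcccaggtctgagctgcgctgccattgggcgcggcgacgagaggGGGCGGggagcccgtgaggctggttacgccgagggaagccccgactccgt
TLN2: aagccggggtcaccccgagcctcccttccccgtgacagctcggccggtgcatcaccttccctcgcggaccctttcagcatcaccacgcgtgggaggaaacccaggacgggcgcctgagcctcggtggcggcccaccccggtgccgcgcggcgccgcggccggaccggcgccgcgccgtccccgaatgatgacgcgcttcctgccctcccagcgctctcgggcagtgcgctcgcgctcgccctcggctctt
The ITGA10 window held 1 CATTCC, the ITGB8 window 2 GC boxes, the VCL window 3 GC boxes and 1 CATTCC on the other strand, and the TLN2 window no match. Over all 35116 windows of this length in the table, 42.6% held a GC box and 11.9% a CATTCC, and 10.7%, 6.57%, 6.34% and 9.42% held the TATA, AP-1, E-box and M-box letters. The GC content was 48.4% for ITGA10, 71.2% for ITGB8, 70.4% for VCL and 74.4% for TLN2, beside a median of 58.0% over all windows. A match describes letters only, and GENCODE 29, used here for gene positions, places the start of ITGA10, ITGB8 and TLN2 inside the window and that of VCL before it.

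Genes around the members were read from lists of integrin ligands and adhesion partners. In A375, 1 of 24 tested matrix ligands was higher and 1 lower in positive, where 4.99% and 5.26% of all genes were, and the list's median log2 difference was 0.02. Blocked by number set, 11 were higher and 4 lower, where 15.6% and 16.5% of all genes were. FN1, which encodes fibronectin, was at 9149, 8711 and 7974 in positive and 14235, 10902 and 11357 in negative libraries, a log2 difference of -0.49 ± 0.10 (limma adjusted p 0.0247). COL1A2 was low, at 20.8, 19.9 and 28.4 against 12, 4.0 and 8.0 (log2 difference 1.51 ± 0.38, limma adjusted p 0.0448). Both genes separated the branches without overlap. Of 22 other focal adhesion proteins, LPP, PDLIM5 and LIMD1 were higher and LPXN, on chromosome 11, lower. Of 27 signalling partners, 3 were higher and 2 lower, among them SHC1 at a log2 difference of 0.43 and ELMO1, a partner of the engulfment pathway, at -0.78. Of 13 tetraspanins and side partners, 2 were lower and none higher, TSPAN4 and CD81, both on chromosome 11. Neither of the 2 other integrin subunits tested passed. The median log2 differences of the focal adhesion, signalling and tetraspanin lists were 0.01, 0.00 and 0.02. Blocked by number set, 6 of the other focal adhesion proteins were higher and 4 lower, 6 of the signalling partners higher and 5 lower, 2 of the tetraspanins and side partners higher and 3 lower, and 1 other subunit higher.

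In 253J, 4 of 28 tested matrix ligands were higher and 1 lower in positive, where 0.529% and 0.564% of all genes were, while the list's median log2 difference was -0.11. The balance turned with a block: 5 were higher and 8 lower with the replicate block, where 7.28% and 6.75% of all genes were, and 5 higher and 12 lower where number sets were the block, beside 9.78% and 8.87% of all genes. COL4A1, a chain of basement membrane collagen, was at 692, 690 and 705 in positive and 236, 226 and 216 in negative libraries, a log2 difference of 1.62 ± 0.07 (limma adjusted p 7.04e-05). Its partner chain COL4A2 had a log2 difference of 1.38, CTGF, a matricellular integrin ligand, 1.37, and the laminin chain LAMA1 0.54. The branches were far apart for both collagen chains. The lower ligand gene was LTBP1, which encodes a latent TGF-beta binding protein and is named after its values were seen. It was low, at 3.2, 6.3 and 4.1 in positive and 27.0, 17.6 and 23.1 in negative libraries (log2 difference -2.11 ± 0.33, limma adjusted p 0.0213). Of 20 other focal adhesion proteins, FBLIM1, which encodes the filamin- and kindlin-binding migfilin, was higher at a log2 difference of 1.67 ± 0.17 (limma adjusted p 0.00257), and none was lower. None of 26 signalling partners, 13 tetraspanins and side partners or 4 other integrin subunits passed. With the replicate block, 2 of the other focal adhesion proteins were higher and 2 lower, 5 signalling partners higher and 2 lower, 1 side partner higher, and no other subunit passed.

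Markers of other cell types were read beside these differences. In A375, 1 of 2 tested leukocyte markers, LCP1, was higher in positive, and the summed level of the list was 90.8 to 138 in positive and 98.8 to 127 in negative libraries. PTPRC was at 1.0 to 14.2 and ITGB2 at 0 to 1.0. Of 7 tested stromal and vascular identifiers, 1 of the 2 named RGS5 was higher, and the summed level was 549.7 to 573 in positive and 391 to 413 in negative libraries. In 253J no such marker passed. The summed stromal level there was 26236 to 28876 in positive and 22753 to 23948 in negative libraries, nearly all of it RGS5, with KDR at 0 in all 6. The part of these markers in the members' differences was not tested.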

How the data were processed

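Poly(A) RNA-seq of 12 libraries was read from 1 table per cell line. The authors deposited a signal per gene, named normalized counts in the file header, which are reads per gene over the library's size factor, rounded to 0.1. Per the submitters' processing notes, cutadapt, STAR 2.4.2a, HTSeq, DESeq2 and GRCh38 were used. The strand setting and annotation are not given in the sources used here. Dividing by the step between low values gave whole reads within 0.055 for 100% of values, and the factors equalled DESeq2's median of ratios within a line.

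Each line was fitted alone with limma 3.58.1 (R 4.3.3, trend) on log2(value + 1). Genes entered at a mean of at least 10, and p was adjusted over all of them by Benjamini-Hochberg at 0.05. The difference between lines was a contrast over all 12 libraries. The recovered reads were tested with edgeR 4.0.16 (quasi-likelihood test) and with DESeq2 1.42.0. Alternatives were other pseudocounts and filters, TMM scaling, the replicate number or the number set as a block, each set alone, same-set libraries averaged, chromosome medians taken out, and each library left out. Scripts were tested on simulated data. In 253J same-numbered libraries of the 2 branches deviated together (correlations of deviations from the branch means of 0.29, 0.19 and 0.50). Positive replicate 1 with negative replicate 2, and positive 2 with negative 1, all of the low set, correlated at 0.21 and 0.17. The data therefore set the number sets apart but do not pair replicates 1 and 2, and the labels state no pairing. Gene positions and exon lengths are from GENCODE 29, which held 99.6% of the identifiers. Promoters are from RefSeq (GRCh38.p14), where 31 members matched.

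Described with every value are subunits at a mean of at least 10 in either line and members called in a line, between lines, or with the number set as a block and the same sign within both sets. From each other list, at most 4 called genes per line were eligible to be named. The members, lists and rule were chosen with earlier results of these data known.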

Additional observations from a re-analysis of the deposited data

Results flagged for a closer look

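For 7 members the test of the difference itself (A375 minus 253J, of the log2 differences positive minus negative) passed an adjusted p of 0.05 in limma. ITGA3 differed by -1.09, TLN2 by 0.65, VCL by 0.33, PXN by -0.41, SRC by -0.43, PARVB by -0.57 and FERMT1 by 0.90. The limma adjusted p over the fits with 1 of the 12 libraries left out ran from 0.000127 to 0.00948 for ITGA3, from 0.00187 to 0.0469 for TLN2, and from 0.00801 to 0.0396 for VCL. It ran from 0.00641 to 0.0205 for PARVB and from 0.00820 to 0.0399 for FERMT1. For SRC it ran from 0.00182 to 0.0687 and for PXN from 0.0242 to 0.103, on both sides of the threshold. With same-set libraries averaged, none of the 7 passed (limma adjusted p 0.125 to 0.423). What lies behind these differences was not tested.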

How the results depend on the processing

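The count of A375 members past the threshold was 8. It was 7 without a filter on low values, where ITGA10 and ITGB8 were lost and GIT1 was gained. It was 8 under the other pseudocounts, filter, tools and TMM scaling, and 8 with chromosome medians taken out. It was 21 with the number set as a block, 17 in the low set alone, 15 in the high set alone and 3 to 12 without 1 library. In 253J the count was 2 with edgeR, DESeq2 or TMM scaling. It was 1 without a filter on low values and 1 with chromosome medians taken out, the call lost being PARVB. It was 14 with the replicate block, 15 with the number set as a block, 16 in the low set alone, and 1 to 3 without 1 library. The count of members differing between lines was 7. The replicate block gave 13 (16.2% of all genes) and blocking on the number set 18 (28.0%). Leaving out 1 of the 12 libraries gave 5 to 9 members, beside 3.55% to 7.32% of all genes. With same-set libraries averaged, limma called 0 members in A375, 0 in 253J and 0 between lines, with 10, 3 and 7 at an unadjusted p under 0.05. On the unaveraged libraries edgeR and DESeq2 each called 8 in A375 and 2 in 253J. The causes of these moves were not tested, and averaging also leaves fewer samples.

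The replicate numbers do not pair the A375 libraries: same-numbered libraries correlated at 0.41, -0.27 and 0.40. The replicate block called 12 members in A375 (4 higher, 8 lower), the 8 among them, where 17.2% of all genes passed. Among tested values, none past the threshold in either fit changed sign, while 49 values of 17 results short of it in both did. The 29 values within the 253J high set have no test, and 2 of them changed sign, ITGA5 from -0.08 to 0.09 and GIT1 from 0.02 to 0.00. The count of subunits at a mean of at least 10 was 14 to 16 in A375 and 12 to 13 in 253J over the thresholds and left-out libraries tried. Genes with few reads, such as ITGA11 in A375 or ITGA10 and FERMT1 in 253J, limit what can be detected.

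Those small log2 differences moved across 0 as follows. In A375, ITGA6 was at -0.06 with the number set as a block, -0.06 in the low set, -0.05 in the high set, -0.06 with same-set libraries averaged and 0.00 with chromosome medians taken out. ITGB1 was at 0.00 with the set as a block, 0.05 in the high set and 0.00 with averaging. The high set alone gave 0.05 for ITGA2 and 0.01 for ITGB3, the low set alone 0.12 for TLN2, and chromosome medians taken out 0.09 for PARVA. In 253J the low set alone gave 0.00 for ITGA6, 0.03 for ITGB3 and -0.02 for ACTN4, and chromosome medians taken out 0.01 for ITGB3. Between lines, ITGB3 was at 0.01 with the set as a block and 0.04 with averaging, BCAR1 at -0.06 and -0.08, and TNS3 at 0.11 with chromosome medians taken out. Without 1 library, the A375 values ran from -0.06 to 0.02 for ITGA2, -0.03 to 0.11 for ITGA6, -0.08 to 0.00 for ITGB1, -0.17 to 0.02 for TLN2 and -0.18 to 0.01 for ACTN1. The 253J values ran from -0.04 to 0.21 for ITGA6, -0.06 to 0.04 for ITGB3, -0.06 to 0.09 for ACTN4 and -0.01 to 0.07 for GIT1. The differences between lines ran from -0.18 to 0.06 for ITGA6, -0.01 to 0.06 for TLN1, -0.08 to 0.18 for BCAR1, -0.11 to 0.04 for TNS3 and -0.11 to 0.36 for NEDD9.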
